A study of Mus musculus with 6 samples.

Results

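Interferon gamma signaling and the GTPases it induces were described in 6 colorectal tumors of mice as a group of 33 genes among the 54167 genes with a deposited value. The 33 genes are the interferon gamma receptor chains and their kinases (4 genes), transcription factors (3), negative regulators (2), guanylate-binding proteins (GBPs, 11), immunity-related GTPases (IRGs, 8) and other induced genes (5). They were matched by gene symbol, and all 33 were found. The genes were chosen by a selection that had the TPM of these same tumors and the comparison of the 2 genotypes in view, so every difference between the genotypes given for them is a description without a test.

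Of the tumors, 3 came from Trp53fl/fl mice, which carry loxP-flanked Trp53 alleles and no Cre, and 3 from VP mice (Pvillin-Cre + Trp53fl/fl), which carry the same floxed alleles and a Cre driven by the villin promoter. Villin is made by intestinal epithelial cells, so the Cre does not act in the immune cells, fibroblasts and vessels that share the dissected tissue. The labels give the strain of all 6 samples as C57BL/6J. Per the methods, male mice received azoxymethane (AOM, 10 mg/kg), a carcinogen, at 8 weeks of age and then repeated courses of 2.5% dextran sulfate sodium (DSS), which injures the colon lining, for 7 days each, and tumors were taken on day 98. Poly(A) RNA of whole tumor tissue was sequenced, and the authors deposited TPM (transcript abundance), values corrected for the length of each transcript and brought to a common total per tumor. The labels do not state whether each tumor came from a different mouse, so n counts tumors, and errors and p-values measure the spread between these tumors. In such bulk tissue, fewer cells of a type and less RNA per cell cannot be told apart.

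Interferon gamma is a cytokine that activated T cells and NK cells release. It binds a receptor made of Ifngr1 and Ifngr2, whose attached kinases Jak1 and Jak2 pass the signal to the nucleus, where it acts at a DNA element called GAS (gamma-activated sequence). The signal also raises Irf1, which binds a second element, the ISRE (interferon-stimulated response element), and both elements lie before many GBP and IRG genes. The GBPs and IRGs are GTPases that gather on the membranes of vacuoles holding intracellular microbes, and in the colon the epithelium and the macrophages below it both respond to interferon gamma.

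The elements are shown here as background to the induced genes, and their bearing on the differences between tumors was not tested. In RefSeq (GRCm38.p6), promoters of 250 bases before to 50 bases after a start site were found for 23 of the 33 genes. GAS was searched as TTCNNNGAA, which reads the same on both strands, and the ISRE core as TTTCNNTTTC on either strand, and a match to one was allowed to overlap a match to the other. Of the 11 GTPases with a promoter, 10 held an ISRE core and 6 held a GAS, against 3.44% and 8.30% of all 32851 mouse promoters in the table. The GTPases were listed as genes induced by interferon gamma, so these counts are a description. A gene was counted if any of its promoters matched (Gbp3 had 2), whereas the shares count single promoters. Of the 4 receptor and kinase genes none held either element, while Irf1, Irf2 and Irf8 each held a GAS. Ifi47 was the GTPase with neither, which says only that these letters are not in its window. Igtp, Irgm2, Tgtp1 and Tgtp2 held a GAS followed after 2 bases by an ISRE core, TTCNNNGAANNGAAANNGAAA. This spacing was chosen after the sequences were seen and occurs in 5 of all promoters (0.0152%), the fifth being that of Gm12185, another IRG gene. The 4 genes are related, and the bases around the elements are alike too. The stretches are given below on the strand of the gene with the matched elements in capitals. All but Gbp3 lie outside the exons of GENCODE M21, and the last 4 bases of the Gbp3 stretch lie in one.
Igtp, chr11:58199496-58199546, plus strand: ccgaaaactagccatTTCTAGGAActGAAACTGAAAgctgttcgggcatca
Irgm2, chr11:58214887-58214937, plus strand: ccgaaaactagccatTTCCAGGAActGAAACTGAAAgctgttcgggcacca
Tgtp1, chr11:48992299-48992349, minus strand: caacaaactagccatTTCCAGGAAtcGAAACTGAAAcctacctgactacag
Tgtp2, chr11:49064258-49064308, minus strand: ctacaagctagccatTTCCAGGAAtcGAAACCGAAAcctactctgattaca
Gbp3, chr3:142559984-142560029, plus strand: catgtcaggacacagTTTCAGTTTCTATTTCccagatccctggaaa
Gbp7, chr3:142530215-142530307, plus strand: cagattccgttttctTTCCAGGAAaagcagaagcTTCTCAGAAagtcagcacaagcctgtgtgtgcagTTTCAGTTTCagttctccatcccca
Irf1, chr11:53769909-53769947, plus strand: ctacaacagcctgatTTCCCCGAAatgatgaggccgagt
Gbp3 holds overlapping ISRE cores and no GAS, Gbp7 holds a pair of GAS and then an ISRE core, and Irf1 holds a GAS alone.

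The genotype labels were checked with Trp53, which was at 99.30 to 147.45 TPM in the Trp53fl/fl tumors and at 27.83 to 38.45 TPM in VP tumors (log2 fold change -1.87, limma adjusted p = 0.0207). The number of reads behind a TPM is not kept, so the depth is unknown. Between tumors, log2(TPM + 1) correlated at 0.959 to 0.974 within a genotype and at 0.948 to 0.970 between genotypes, a description across genes, which are not independent. The 10 epithelial marker genes summed to 10517 to 10837.3 TPM in Trp53fl/fl tumors and to 11927.3 to 12955.5 TPM in VP tumors, and none was at 0 in any tumor. Of these markers Krt19, Cldn7 and Lgals4 were higher in VP tumors at an unadjusted p under 0.05.

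The GTPases differed widely between tumors of the same genotype, and mainly between the VP tumors. VP replicate 2 had the highest TPM of the 6 tumors for 16 of the 19 GTPases, and for 14 of the 16 that passed the filter, against 15.1% of all 15117 genes that passed it. It was the highest of the VP tumors for 19 of 19, and for 16 of the 16, against 33.1%. VP replicate 1 was the lowest of the VP tumors for 15 of the 19, and for 12 of the 16, against 34.1%. It lay below all 3 Trp53fl/fl tumors for 8 of the 19, and for 5 of the 16, against 34.9%, a share near that of all genes. The 19 GTPases together summed to 238.86, 178.45 and 172.03 TPM in Trp53fl/fl replicates 1, 2 and 3 and to 200.23, 543.63 and 298.35 TPM in VP replicates 1, 2 and 3. In the following, TPM are given in this order of replicates. The sum of VP replicate 1 thus lay inside the range of the Trp53fl/fl tumors and the sums of the other two VP tumors above it.

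Among the GBPs, Gbp2 and Gbp3 had the highest TPM of the family in the VP tumors. Gbp2, a GTPase that coats microbial vacuoles, was at 24.72, 18.30 and 19.66 TPM in the Trp53fl/fl tumors and at 16.62, 70.95 and 33.74 TPM in VP tumors. The genotypes overlapped, since VP replicate 1 was the lowest tumor of all and VP replicate 2 the highest. Its log2 fold change, VP minus Trp53fl/fl on the log2(TPM + 1) scale used throughout, was 0.70 ± 0.46 (SE, n = 3 tumors per genotype), a scale that understates the change of weakly expressed genes. Gbp3 was at 8.05, 9.24 and 5.83 TPM in the Trp53fl/fl tumors and at 14.40, 19.52 and 10.89 TPM in VP tumors, and was the GBP whose genotypes did not overlap (log2 fold change 0.86 ± 0.24). Gbp5, which takes part in inflammasome assembly, was at 4.78, 3.49 and 3.27 TPM and at 2.65, 8.67 and 5.64 TPM, again with VP replicate 1 lowest and VP replicate 2 highest.

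Gbp4 and Gbp6 had the same order of tumors in VP mice. Gbp4 was at 6.07, 5.30 and 3.51 TPM in the Trp53fl/fl tumors and at 5.47, 14.27 and 6.94 TPM in VP tumors, and Gbp6 at 5.84, 4.47 and 3.37 TPM and at 5.35, 13.07 and 6.47 TPM. For both, VP replicate 1 lay inside the Trp53fl/fl range and the other two VP tumors above it. Gbp7 and Gbp9 moved little. Gbp7 was at 4.67, 6.23 and 3.11 TPM and at 4.43, 5.99 and 4.0 TPM (log2 fold change 0.06 ± 0.25), and Gbp9 at 9.35, 9.06 and 6.36 TPM and at 7.89, 10.40 and 7.11 TPM (0.03 ± 0.20). Gbp8 was at 1.63, 3.65 and 0.78 TPM and at 1.29, 3.12 and 2.16 TPM, the widest spread among the Trp53fl/fl tumors of the GBPs tested. Gbp2b, Gbp10 and Gbp11 stayed below the filter, which asked for 1 TPM or more in 3 or more tumors, with Gbp10 at 0.39 to 3.69 TPM in VP tumors and Gbp2b and Gbp11 under 1 TPM everywhere. The 11 GBPs had a median log2 fold change of 0.36, which was -0.03 without VP replicate 2 and 0.74 without VP replicate 1. The -0.03 is the value of Gbp11, a gene below the filter. Without VP replicate 2, 5 of the 11 stayed above 0, namely Gbp2, Gbp3, Gbp4, Gbp5 and Gbp6, which all passed the filter. Gbp7, Gbp8 and Gbp9, which passed it too, fell below 0. The median of the GBPs that passed the filter thus stayed above 0 without VP replicate 2.

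**Figure D1:**
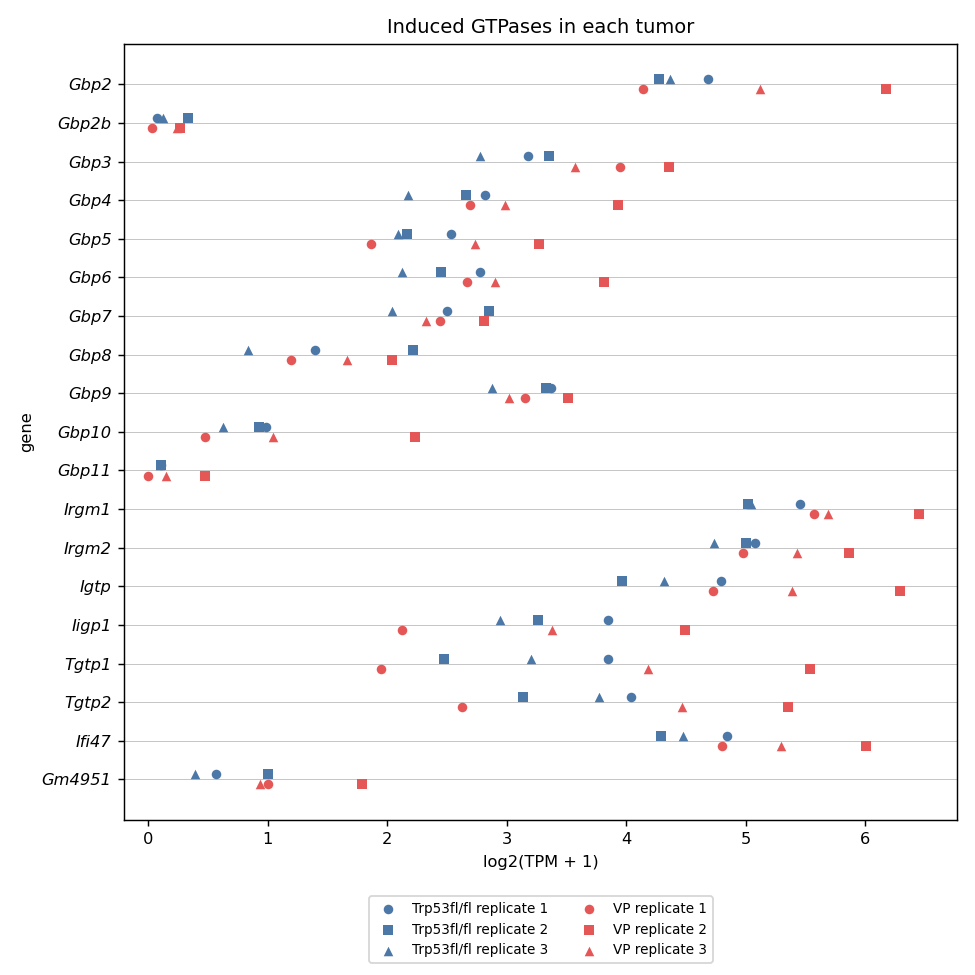
Level of each of the 19 GTPases in each tumor, as log2(TPM + 1) on the x axis, with Trp53fl/fl tumors in blue, VP tumors in red and 1 point per tumor, the marker giving the replicate number. The red square, VP replicate 2, is the rightmost point for 16 of the 19 genes, and the red circle, VP replicate 1, lies left of all blue points for 8 of them.

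The summed TPM of the IRGs was higher than that of the GBPs in each tumor. They summed to 117.47 to 172.64 TPM in the Trp53fl/fl tumors and to 141.72, 393.36 and 220.05 TPM in VP tumors, against 46.59 to 66.22 TPM and 58.51, 150.27 and 78.30 TPM for the GBPs. VP replicate 2 was the highest tumor for 8 of the 8 IRGs. Irgm1, which lacks the usual lysine of the GTP-binding site and restrains the other IRGs on host membranes, was at 42.86, 31.30 and 31.89 TPM in the Trp53fl/fl tumors and at 46.61, 86.23 and 50.61 TPM in VP tumors. It was the IRG whose genotypes did not overlap, with a log2 fold change of 0.73 ± 0.25 (SE). Igtp, also called Irgm3, was at 26.73, 14.61 and 18.94 TPM and at 25.41, 77.27 and 40.78 TPM, which gave the largest log2 fold change of the 33 members, 1.11 ± 0.40. VP replicate 1 nonetheless stayed below Trp53fl/fl replicate 1 for Igtp. Irgm2 was at 32.79, 30.99 and 25.57 TPM and at 30.47, 57.23 and 41.91 TPM. Ifi47 was at 27.62, 18.61 and 21.16 TPM and at 26.85, 63.36 and 38.23 TPM. For both of these genes VP replicate 1 again lay within the Trp53fl/fl range.

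Of the IRGs, Tgtp1, Tgtp2 and Iigp1, which load onto microbial vacuoles, had the widest spread among the VP tumors. Tgtp1 was at 13.39, 4.55 and 8.18 TPM in the Trp53fl/fl tumors and at 2.86, 45.44 and 17.15 TPM in VP tumors. Tgtp2 was at 15.39, 7.80 and 12.69 TPM and at 5.17, 39.93 and 21.05 TPM. Iigp1 was at 13.38, 8.61 and 6.70 TPM and at 3.35, 21.44 and 9.41 TPM. For all 3 genes VP replicate 1 was the lowest and VP replicate 2 the highest of the 6 tumors. Their log2 fold changes of 0.72 ± 0.85, 0.50 ± 0.64 and -0.02 ± 0.56 were smaller than their standard errors. Gm4951, the least expressed IRG, was at 0.31 to 1.00 TPM in the Trp53fl/fl tumors and at 1.00, 2.46 and 0.91 TPM in VP tumors. The median log2 fold change of the 8 IRGs was 0.65, and 0.29 without VP replicate 2.

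Tgtp1 and Tgtp2 cannot be read as separate measurements, since 79.4% of the 50-base windows in the Tgtp1 transcripts also occur in Tgtp2 and 85.8% of those in Tgtp2 occur in Tgtp1. The same holds for Gbp10, which shares 73.3% of its windows with Gbp6, and for Gbp6, which shares 65.0% with Gm43302. In GENCODE M21 (GRCm38), the gene spans of Gbp4, Gbp8 and Gbp9 overlap on the same strand, as do those of Igtp and Irgm2, so reads of these genes may have been divided between them. Many of the GTPases lie in clusters. The 5 GBPs of chromosome 3 lie at chr3:142493978-142638008, the other 6 GBPs on chromosome 5, and 7 members on chromosome 11, namely Irgm1, Tgtp1, Tgtp2, Ifi47, Irf1, Igtp and Irgm2. The processing notes name build mm9, so coordinates here were taken from the annotation by gene and not from the files.

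The receptor and its kinases varied little among the VP tumors, and none of the 4 genes spread 2-fold or more within a genotype. Among the Trp53fl/fl tumors, the highest was 1.65-fold above the lowest for Jak2 and 1.40-fold for Ifngr1, against a median of 1.34 over all genes tested. Ifngr1, the ligand-binding chain, was at 101.97, 130.18 and 93.30 TPM in the Trp53fl/fl tumors and at 128.19, 118.78 and 103.28 TPM in VP tumors. Ifngr2, the second chain, was at 76.64, 80.66 and 81.05 TPM and at 65.97, 69.88 and 81.64 TPM. The genotypes overlapped for both chains. Jak1 was at 54.70, 58.10 and 54.25 TPM and at 48.78, 49.60 and 50.11 TPM, a small difference without overlap (log2 fold change -0.17 ± 0.09), and it was the only member for which all VP tumors lay below all Trp53fl/fl tumors. Jak2 was at 25.70, 34.35 and 20.87 TPM and at 23.20, 20.98 and 20.05 TPM. The 4 genes summed to 249.47 to 303.29 TPM in Trp53fl/fl tumors and to 255.08 to 266.14 TPM in VP tumors, so VP replicate 2, with 259.24 TPM, did not stand apart here as it did for the GTPases.

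The transcription factors lay between these extremes. Irf1, itself induced by interferon gamma, was at 81.91, 81.25 and 85.95 TPM in the Trp53fl/fl tumors and at 67.15, 123.14 and 111.29 TPM in VP tumors. The Trp53fl/fl tumors were almost equal, and the VP tumors fell on both sides of them. Irf8, a factor of macrophages and dendritic cells, was at 28.73, 27.05 and 30.95 TPM and at 34.72, 39.57 and 34.63 TPM, without overlap (log2 fold change 0.32 ± 0.11). Irf2, which competes with Irf1 for the same DNA element, was at 28.33, 40.92 and 39.60 TPM and at 45.88, 43.36 and 34.88 TPM. Of the negative regulators, Socs1, an inhibitor of the Jak kinases, was at 0.97 to 2.38 TPM in Trp53fl/fl tumors and at 1.57, 2.89 and 2.52 TPM in VP tumors. Ptpn2, a phosphatase that removes phosphate from Jak1, was at 22.92 to 34.71 TPM and at 25.10, 26.83 and 25.02 TPM. Neither separated the genotypes.

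Among the other induced genes, the chemokine Cxcl9 and the tryptophan-degrading enzyme Ido1 had the same order of VP tumors as the GTPases. Cxcl9, which attracts T cells, was at 8.86, 3.02 and 4.25 TPM in the Trp53fl/fl tumors and at 1.03, 12.94 and 6.83 TPM in VP tumors. Ido1 was at 7.39, 6.79 and 2.39 TPM and at 2.06, 18.00 and 9.48 TPM. Cd274, the ligand of an inhibitory receptor on T cells, was at 3.55 to 3.99 TPM and at 3.74, 7.94 and 4.43 TPM. VP replicate 2 was the highest tumor for these 3 genes. Icam1, an adhesion molecule for leukocytes, was at 33.36, 21.57 and 41.05 TPM and at 34.63, 48.65 and 57.42 TPM, and Serpina3g, a protease inhibitor, at 28.77, 17.72 and 13.66 TPM and at 23.11, 22.35 and 27.12 TPM. For Icam1 the highest tumor was VP replicate 3, and for Serpina3g it was Trp53fl/fl replicate 1.

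**Figure D2:**
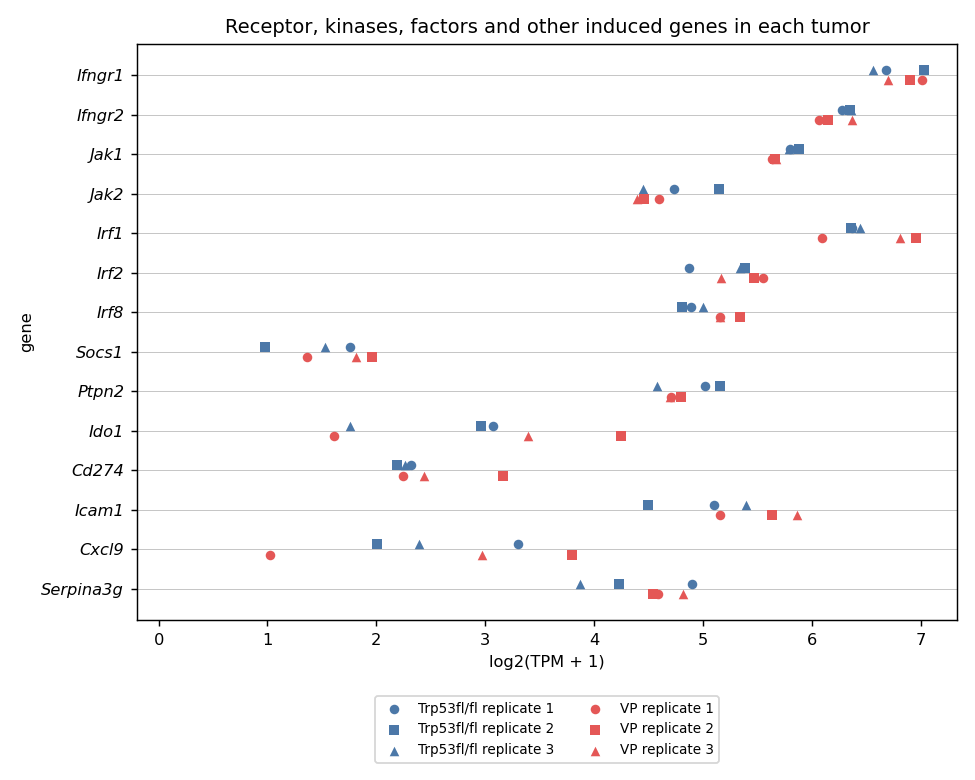
Level of the 14 members that are not GTPases in each tumor, as log2(TPM + 1) on the x axis, with Trp53fl/fl tumors in blue, VP tumors in red and the marker giving the replicate number. The points of Ifngr1, Ifngr2 and Jak1 lie close together, while Ido1 and Cxcl9 spread widely, with VP replicate 1 lowest and VP replicate 2 highest.

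Over all 33 members, the median log2 fold change was 0.32, and 0.06 without VP replicate 2, against -0.07 over all genes tested. Of the members, 28 were above 0 and 5 below 0, and 18 were above 0 without VP replicate 2. The genotypes did not overlap for 3 members higher in VP tumors (Irf8, Gbp3 and Irgm1) and 1 lower (Jak1). Over all genes tested, 6.03% did not overlap with VP higher and 13.3% with VP lower. The filter was passed by 30 of the 33 members. Since this same comparison was in view when the members were chosen, these counts are given without a reading.

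The spread inside a genotype was counted as well. Of the 30 members that passed the filter, the highest VP tumor was at least 2-fold above the lowest for 14. This held for 11 of the 16 GTPases that passed it, against 15.9% of all genes tested. Among the Trp53fl/fl tumors such a spread was found for 8 of the 30 members and 4 of the 16 GTPases, against 14.5% of all genes tested. Relative to the mean of the Trp53fl/fl tumors, the median log2 difference of the 19 GTPases was -0.04 in VP replicate 1, 1.26 in VP replicate 2 and 0.45 in VP replicate 3. VP replicate 1 exceeded all 3 Trp53fl/fl tumors for 2 of the 19 GTPases, VP replicate 2 for 16 and VP replicate 3 for 13, against 21.4%, 23.6% and 19.6% of all genes tested. The GTPases of VP replicate 3 thus lay on the same side as those of VP replicate 2, at a smaller distance.

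**Figure D3:**
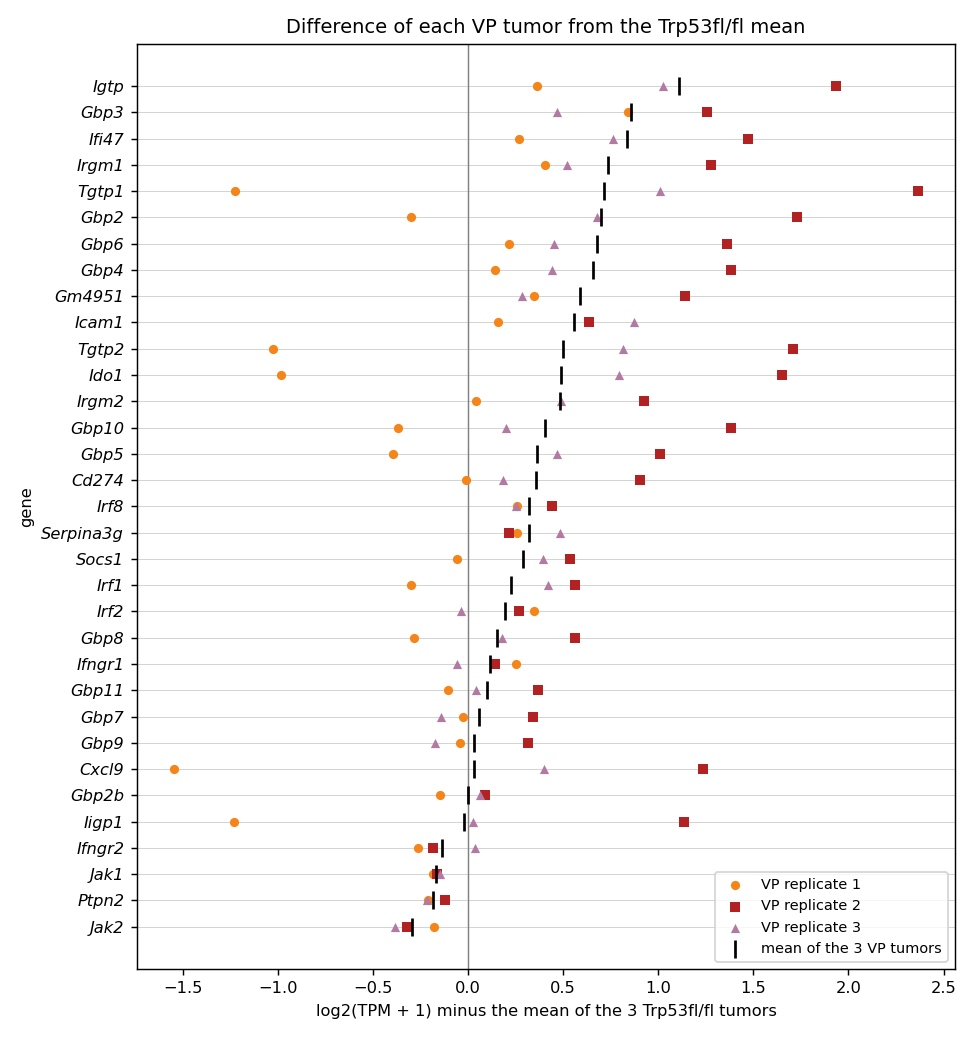
Difference of each VP tumor from the mean of the 3 Trp53fl/fl tumors for the 33 members, on the log2(TPM + 1) scale, with genes ordered by the mean of the 3 VP tumors (black bar). The dark red squares of VP replicate 2 reach 2.36 for Tgtp1, while the orange circles of VP replicate 1 fall to -1.55 for Cxcl9, and the 3 VP tumors lie close together for Jak1 and Ptpn2.

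Genes of the interferon gamma pathway outside the 33 were examined as a list of 24 genes, of which 22 passed the filter. Like all other lists here, it was chosen with earlier results of these data known. Its counts of called genes are therefore descriptions and no independent support. The cytokine gene itself, Ifng, was under the filter, at 0.14, 0.07 and 0.00 TPM in the Trp53fl/fl tumors and at 0.00, 1.34 and 0.28 TPM in VP tumors. It was thus highest in VP replicate 2, the tumor with the highest GTPases, and listed at 0 in VP replicate 1. Ciita, the activator of MHC class II genes, was at 4.52, 4.58 and 3.62 TPM and at 1.56, 7.22 and 5.13 TPM (adjusted p = 0.970), and Nlrc5, the activator of MHC class I genes, at 5.15 to 7.82 TPM and at 7.92, 12.91 and 7.40 TPM (adjusted p = 0.466). VP replicate 2 was the highest tumor for 18 of the 24 genes.

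By limma, 0 of these 22 genes passed an adjusted p of 0.05, the lowest being 0.183, against 0.165% of all genes tested. At an unadjusted p under 0.05, 10 were higher in VP tumors (Irf9, Cxcl10, Nos2, Batf2, Tap1, Tap2, Psmb8, Psmb9, Psmb10 and Parp14) and 0 were lower, against 4.51% and 8.0% of all genes tested. Those shares depend on the scaling, with 682 genes higher and 1210 lower as deposited, 1051 and 702 after median-of-ratios rescaling, 918 and 801 after quantile normalization, and 281 and 3930 after centring on the epithelial markers. Nos2, the inducible nitric oxide synthase, was at 30.23, 19.40 and 22.00 TPM in the Trp53fl/fl tumors and at 38.57, 83.65 and 62.45 TPM in VP tumors (log2 fold change 1.29 ± 0.29, adjusted p = 0.246). Cxcl10, a chemokine for T cells, was at 10.94, 4.06 and 10.65 TPM and at 13.20, 40.41 and 26.20 TPM (1.502 ± 0.47, adjusted p = 0.317). Psmb8, a subunit of the immunoproteasome, was at 92.75, 59.03 and 82.73 TPM and at 151.63, 252.46 and 157.81 TPM (1.23 ± 0.24, adjusted p = 0.183). All VP tumors lay above all Trp53fl/fl tumors for these 3 genes, although none passed the adjusted threshold.

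A list of 12 other interferon-inducible or IRG-related GTPases outside the 33 was examined too, and 8 passed the filter. At an unadjusted p under 0.05, Mx1, Mx2 and Gm12250 were higher and Irgq was lower, and 0 passed an adjusted p of 0.05 by limma. Gm12250 was at 2.96, 3.73 and 3.31 TPM in the Trp53fl/fl tumors and at 5.27, 15.95 and 5.53 TPM in VP tumors, with the largest log2 fold change of these, 1.03 ± 0.38 (limma adjusted p = 0.357). GENCODE M21 lists Gm12250 as a processed pseudogene, a label that does not settle whether it makes a protein.

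Interferons of type I, which act through another receptor, induce a set of genes that overlaps with that of interferon gamma. In a list of 12 type I response genes, VP replicate 1 lay above all 3 Trp53fl/fl tumors for 12 of 12, whereas it did so for 2 of the 19 GTPases, and the difference between the lists was not tested. The 12 genes summed to 252.65 to 311.13 TPM in the Trp53fl/fl tumors and to 682.86, 834.83 and 432.54 TPM in VP tumors. VP replicate 1 was therefore second for the type I list and last of the VP tumors for the GTPases. At an unadjusted p under 0.05, 11 of the 12 were higher in VP tumors, and 0 passed an adjusted p of 0.05 by limma. This list too was chosen with earlier results of these data known, so the count is a description.

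**Figure D4:**
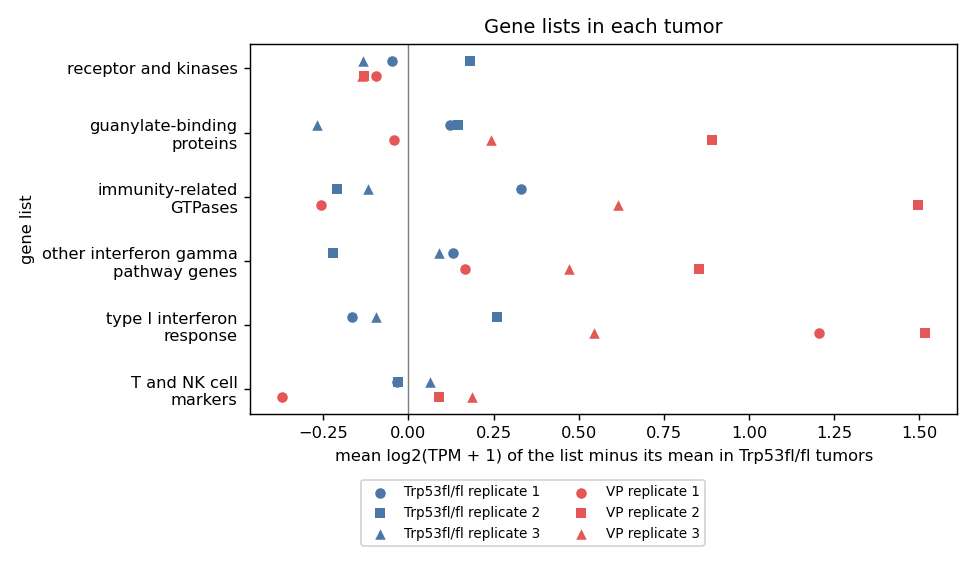
Mean log2(TPM + 1) of 6 gene lists in each tumor, minus the mean of the same list in the 3 Trp53fl/fl tumors (x axis), with 1 point per tumor. VP replicate 2 lies at 0.89 for the GBPs and 1.49 for the IRGs, VP replicate 1 at -0.04 and -0.26, and for the type I list VP replicate 1 lies at 1.20.

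Markers of the cells that release or answer interferon gamma were set beside these values. The 14 T and NK cell markers, of which 7 passed the filter, summed to 25.19 to 29.18 TPM in the Trp53fl/fl tumors and to 15.95, 29.85 and 33.41 TPM in VP tumors. VP replicate 1, the VP tumor with the lowest GTPases, was thus lowest for this list too. It also had the lowest sum of the 6 tumors for the macrophage list (982.63 TPM) and the fibroblast list (697.65 TPM) given below. The low macrophage sum rested largely on Lyz2, at 514.88 TPM in VP replicate 1 and at 721.92 to 774.82 TPM in Trp53fl/fl tumors. VP replicate 1 was the lowest tumor for 10 of the 14 T and NK cell, 2 of the 8 macrophage and 3 of the 7 fibroblast markers. The NK cell receptor Ncr1 failed the filter, at 0 TPM in VP replicate 1 and at 0.06 to 0.21 TPM in the other tumors. VP replicate 2, which had the highest GTPases, did not have the highest T and NK cell sum. The log2 fold change was below 0 for 10 of the 14 markers, with a median of -0.06. All VP tumors lay below all Trp53fl/fl tumors for Cd3g (log2 fold change -0.57, limma adjusted p = 0.3997), while Gzma was higher at an unadjusted p under 0.05. The 8 macrophage markers summed to 1182.24 to 1258.08 TPM and to 982.63 to 1362.41 TPM, and Cd68 was the 1 gene higher at an unadjusted p under 0.05. The 9 neutrophil markers summed to 367.05 to 698.70 TPM and to 1175.72 to 1991.84 TPM, 7 were higher at an unadjusted p under 0.05 and 1 (Ngp, adjusted p = 0.00804) passed the adjusted threshold, while Camp was at 0 in all Trp53fl/fl tumors.

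Of the other lists, the 7 endothelial markers summed to 97.26 to 123.13 TPM in Trp53fl/fl tumors and to 120.90 to 124.86 TPM in VP tumors, and Vwf was higher at an unadjusted p under 0.05. The 7 fibroblast markers summed to 833.91 to 923.08 TPM and to 697.65 to 1035.24 TPM, and Lum and Pdgfra were lower in VP tumors at an unadjusted p under 0.05. The 6 B lineage markers summed to 429.60 to 843.10 TPM and to 397.91 to 893.62 TPM. The 5 smooth muscle markers summed to 359.39 to 589.54 TPM and to 294.18 to 1010.05 TPM, and VP replicate 2 was the highest tumor for 5 of 5. VP replicate 3, whose GTPase sum was second of the 6 tumors, was the lowest tumor for 5 of 5 muscle markers. The order of the VP tumors was thus not the same for muscle markers and GTPases, although VP replicate 2 was highest in both. VP replicate 2 was also the highest VP tumor for 6 of the 6 B lineage and 6 of the 7 fibroblast markers. The part of any of these cell types in the GTPase levels was not tested.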

How the data were processed

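RNA-seq of 6 AOM/DSS tumors, 3 per genotype, was analysed. The authors deposited TPM per gene with 2 decimals in 1 table. The submitters' processing notes name HISAT2, StringTie and build mm9 without versions, and the annotation is not given in the sources used here. TPM keep no depth, so no count test, counting interval or floor was possible, and each value depends on all other genes of its tumor. Columns summed to 999964.35 to 1000067. Of 54167 genes, 26296 were at 0 in all tumors.

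The 33 members and all lists were chosen with earlier results of these data known. The 33 members were all to be named, and other genes by list, of which 1 is not reported here singly. With limma 3.58.1 in R 4.3.3, log2(TPM + 1) of the 15117 genes reaching 1 TPM in 3 or more tumors was fitted (empirical Bayes with trend, Benjamini-Hochberg adjustment over all genes tested), and the procedure was checked on simulated data. Replicate numbers come from the sample titles, and p-values measure the spread between these tumors. Coordinates came from GENCODE M21 and promoters from RefSeq (GRCm38.p6), a build other than mm9. Promoters were missing for 10 members. Shared sequence was counted as 50-base windows of GENCODE transcripts found in another gene. Figures were drawn with matplotlib 3.10.9. Alternatives were a pseudocount of 0.1, no filter, a mean of at least 5 TPM, rescaling, quantile normalization, epithelial centring, a replicate block, no trend, and each tumor left out in turn.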

Additional observations from a re-analysis of the deposited data

How the results depend on the processing

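The median log2 fold change of the members (0.32) ranged from 0.14 to 0.41 under other settings and from 0.06 to 0.58 with 1 tumor left out, and that of the IRGs (0.65) from 0.47 to 0.73 and from 0.29 to 1.01. That of the GBPs (0.36) was 0.18 to 0.68 under other settings, and with 1 tumor left out it ran from -0.031 (without VP replicate 2, a reversed sign) to 0.74 (without VP replicate 1). The -0.031 is the value of Gbp11, which failed the filter, as did Gbp2b and Gbp10. Of the 8 GBPs that passed it, 5 stayed above 0 without VP replicate 2. The sign of the median thus reversed only with the genes below the filter included. These GBP and IRG medians were added after seeing the data, as was the count of 16 GTPases highest in VP replicate 2, which was 15 to 17 under 3 rescalings. Of the 33 members, 21 kept their sign under each of 10 alternatives and 12 did not, 10 of them without VP replicate 2. Members without overlap (4) numbered 4 to 20 with 1 tumor left out, 20 without VP replicate 1, 9 without Trp53fl/fl replicate 1 and 7 without Trp53fl/fl replicate 3. With fewer tumors any gene is more easily without overlap. The share over all genes was not counted with a tumor left out, so these counts have no background and are given without a reading. The 10 pathway genes at an unadjusted p under 0.05 numbered 9 to 11 under other settings and 7 to 11 with 1 tumor left out. The 25 genes at an adjusted p under 0.05 (12 higher, 13 lower) became 7 without the filter, 42 after epithelial centring (12 and 30), which moved the median of all genes to -0.25, 20 after rescaling (12 and 8), and 6 (without VP replicate 2) to 28 (without VP replicate 3) with 1 tumor left out, with 8 without Trp53fl/fl replicate 1, 10 without Trp53fl/fl replicate 3 and 9 without VP replicate 1. The replicate block gave 10 (7 and 3). Tumors of the same number correlated in their deviations at 0.019, -0.052 and 0.018, so the numbers were not taken to pair the tumors. Apart from the settings' own construction, the cause of these changes was not tested. Depth is unknown and 3 tumors per genotype limit the precision.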
